A study of Mus musculus with 9 samples.

Results

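The core macroautophagy genes described here are a fixed list of 36 genes for autophagy initiation, nucleation, conjugation, cargo selection and fusion, without the receptors that mark mitochondria for removal. The list was chosen with earlier results of these data known, and its genes were matched by symbol alone. Of the 36 symbols, 34 were found among the 23285 genes of the authors' deposited table. The symbols Atg101 and Epg5 were not matched there. Both genes are listed under older names that RefSeq gives as synonyms, so their values are given beside the others and are not counted among the 34.

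RNA was sequenced from immature erythroid cells of C57BL/6 mouse bone marrow, sorted by CD71, the transferrin receptor, and TER119, a surface antigen that appears as red cell precursors mature. The control group, FFa, was TRIM28(flox/flox) without Cre and was sorted as CD71(hi)TER119+. The mutant group KOa was TRIM28(flox/flox):Mx1Cre, sorted through the same gate and described as modestly deleted, and the mutant group KOb had the same genotype but was sorted as CD71(hi)TER119- and described as severely deleted. Each group had 3 libraries. The mutants had received 5 injections of poly(I:C), which induces the interferon-driven Mx1 promoter and thereby Cre in blood-forming and other cells, and were analysed 2 weeks later. The labels leave out whether control mice had poly(I:C), whether each library is a separate mouse, and how old the animals were. All 3 groups carry the floxed Trim28 allele. In KOb the degree of deletion and the gate cannot be told apart, nor can Cre and the deletion in either mutant group.

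Macroautophagy encloses cytoplasm in a double membrane, the autophagosome, and delivers it to the lysosome. The ULK kinase complex starts the process, a class III phosphatidylinositol 3-kinase (PI3K) complex marks the membrane with the lipid PI3P, ATG9 and ATG2 proteins supply lipid, and a conjugation system related to that of ubiquitin attaches ATG8 proteins (the LC3 and GABARAP families) to the membrane. Cargo receptors bind both ATG8 proteins and their cargo, and a tether and a SNARE fuse the closed autophagosome with the lysosome. In the erythroid lineage autophagy is known for clearing mitochondria and other organelles as precursors mature. TRIM28 is a corepressor that is recruited to DNA by KRAB zinc finger proteins and silences chromatin.

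Every level below is the authors' FPKM (fragments scaled by transcript length and library size), 1 value per gene and group, because the 3 libraries of a group were pooled before deposit. No SD can therefore be given, and whether the libraries of 2 groups overlap cannot be read. A log2 ratio compares the FPKM of 2 groups on a log2 scale, the first named over the second, and the ± after it is the standard error implied by the test statistic in the authors' deposited table. A gene is called, and said to have risen or fallen, where its q (the p-value adjusted over all genes) is below 0.05 in that table. What spread the tests used cannot be read from pooled values, and that between these libraries may be partly technical. The depth per library is unknown.

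As a check of the labels, Trim28 itself had a level of 26.0 FPKM in the control, 6.64 in KOa and 4.76 in KOb. Between the mutants, KOb against KOa, its log2 ratio of -0.48 ± 0.32 did not pass (q = 0.0535 in the authors' deposited table). In the order FFa, KOa and KOb, the total of all FPKM values was 1239023, 1275908 and 659008.5, with 64.6%, 76.3% and 53.3% of it in globin genes. The 10 erythroid markers were detected in all groups and summed to 5785, 4818 and 3103 FPKM. The 12 granulocyte markers went from 48878 FPKM in FFa to 16589 in KOa and 13434 in KOb, the 10 macrophage and monocyte markers from 369.8 to 105.8 and 96.1, and the 8 B cell markers from 213.6 to 13.7 and 12.2. S100a8 and S100a9 held 92.5%, 91.0% and 91.6% of the granulocyte sum. Lyz2, at 284.4, 49.7 and 63.9 FPKM, was the largest part of the macrophage and monocyte sum. Of those 10 macrophage and monocyte markers, 8 were called lower in KOa, where C1qb and C1qc did not pass, and 10 in KOb. The granulocyte list was not uniform. In KOa 5 of its genes were called lower and 1 higher, and in KOb 7 lower and 1 higher. The gene called higher in both was the early granule gene Mpo, at 8.15, 21.7 and 27.3 FPKM. Elane, at 5.37, 13.2 and 20.3, and Prtn3, at 1.67, 8.08 and 6.53, had higher values in the mutants without passing the test. The 6 megakaryocyte markers summed to 34.6, 68.2 and 55.0 FPKM, the 6 T and NK cell markers to 17.1, 15.7 and 14.6, and of all these markers none was listed at 0 in any group. Of the megakaryocyte markers, 3 were called higher and 0 lower in each mutant. Of the T and NK cell markers, 1 was called higher and 1 lower in KOa, and 1 higher and 3 lower in KOb. The part of these other cells in the autophagy results was not tested. In bulk RNA, fewer cells of a type and less RNA per cell cannot be told apart.

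Promoter sequences are shown for the genes whose values the results turn on. They are from RefSeq (build GRCm38.p6) and hold 250 bases that end just before a start of transcription, 5′ to 3′ on the gene's strand, and such windows were found for 29 of the 34 members. The windows of Atg4a are those of the gene on chromosome X, not of the chromosome 3 locus that carries its name in the deposited table. Capitals mark 3 motifs on either strand, the E-box CACGTG, which TFEB and many other basic helix-loop-helix factors read, the GC box GGGCGG and the CCAAT box. Calcoco1 and Tax1bp1 are the cargo receptor genes that fell in both mutant groups, Map1lc3b the ATG8 gene that fell in KOb, Atg2a and Atg2b the paralogs that rose, and Atg3 the member with the most E-boxes.
Calcoco1, chr15:102722179-102722428, minus strand: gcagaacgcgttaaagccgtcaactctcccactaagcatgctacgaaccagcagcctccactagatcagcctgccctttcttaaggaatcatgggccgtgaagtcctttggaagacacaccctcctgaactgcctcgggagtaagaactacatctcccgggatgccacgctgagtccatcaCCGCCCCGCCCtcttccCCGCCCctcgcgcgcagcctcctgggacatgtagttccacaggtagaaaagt
Tax1bp1, first listed start, chr6:52713479-52713728, plus strand: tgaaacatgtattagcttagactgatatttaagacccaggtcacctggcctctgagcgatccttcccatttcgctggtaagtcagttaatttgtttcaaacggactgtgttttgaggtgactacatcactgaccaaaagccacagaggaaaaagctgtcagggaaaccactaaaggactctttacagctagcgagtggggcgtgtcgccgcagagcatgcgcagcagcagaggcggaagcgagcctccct
Map1lc3b, chr8:121590188-121590437, plus strand: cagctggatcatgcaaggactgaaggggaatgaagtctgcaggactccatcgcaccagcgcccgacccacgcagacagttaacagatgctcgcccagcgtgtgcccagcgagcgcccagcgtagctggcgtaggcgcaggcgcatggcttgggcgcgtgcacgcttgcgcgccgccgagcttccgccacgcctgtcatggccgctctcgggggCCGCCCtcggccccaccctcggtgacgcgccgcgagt
Atg2a, chr19:6241418-6241667, plus strand: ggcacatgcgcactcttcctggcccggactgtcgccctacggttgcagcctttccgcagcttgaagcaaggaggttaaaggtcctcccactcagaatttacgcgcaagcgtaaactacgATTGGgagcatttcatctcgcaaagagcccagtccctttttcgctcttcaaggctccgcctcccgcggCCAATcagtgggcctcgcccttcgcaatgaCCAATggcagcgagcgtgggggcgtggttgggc
Atg2b, chr12:105685242-105685491, minus strand: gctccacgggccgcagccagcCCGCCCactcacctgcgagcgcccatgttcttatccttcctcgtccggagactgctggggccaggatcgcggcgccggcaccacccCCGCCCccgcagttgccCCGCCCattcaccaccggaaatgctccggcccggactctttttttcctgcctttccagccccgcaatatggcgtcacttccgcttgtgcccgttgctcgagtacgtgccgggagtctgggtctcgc
Atg3, chr16:45158579-45158828, plus strand: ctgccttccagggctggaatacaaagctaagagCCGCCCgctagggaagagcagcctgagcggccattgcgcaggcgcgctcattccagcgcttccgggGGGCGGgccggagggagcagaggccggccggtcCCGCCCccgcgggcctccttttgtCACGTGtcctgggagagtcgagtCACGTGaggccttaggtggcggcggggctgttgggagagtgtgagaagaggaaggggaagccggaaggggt

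GC boxes were the motif most often seen. The window of Calcoco1 held 3 GC boxes, that of Atg2b held 3 and that of Map1lc3b held 1, whereas the Atg2a window held none but had 3 CCAAT boxes, and the Tax1bp1 window shown held none of the motifs. Over all members with a window, GGGCGG occurred on either strand in 18 of 29 (62.1%), against 35.4% of all genes with windows of this length. The members' windows had a median GC content of 59.0%, against 52.4% for all windows, and the part of base composition in the share of this GC-only motif was not tested. CCAAT occurred in 9 members (31.0%, against 37.5% of all genes).

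E-boxes were found in 3 of the 29 members, Atg3, Atg5 and Atg7 (10.3%, against 6.86% of all genes), which all belong to the conjugation system. In Atg3 the downstream E-box lies in TCACGTGA, the palindrome described for lysosomal and autophagy genes, which 1 member (3.45%) and 0.907% of all genes carried. The GATA motif AGATAA, read by the erythroid factor GATA1 among others, was in the windows of Atg4d and of the chromosome X gene Atg4a (2 members, 6.90%, against 11.4%). Motifs were searched on both strands, and TCACGTGA contains CACGTG. A match describes the letters of a window and nothing else.

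In level, the list was carried by a few genes. In FFa the members had a median of 3.90 FPKM, against 5.28 over the 8042 genes with at least 1 FPKM there. The summed FPKM of the members was 489.6 in FFa, 433.8 in KOa and 397.2 in KOb. The 4 ATG8 genes and the 3 cargo receptors together accounted for 77.7%, 75.5% and 74.7% of the list. There were 32 members with 1 FPKM or more in some group, and Atg4c and Vps18 stayed under 1 in all 3 groups.

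**Figure D1:**
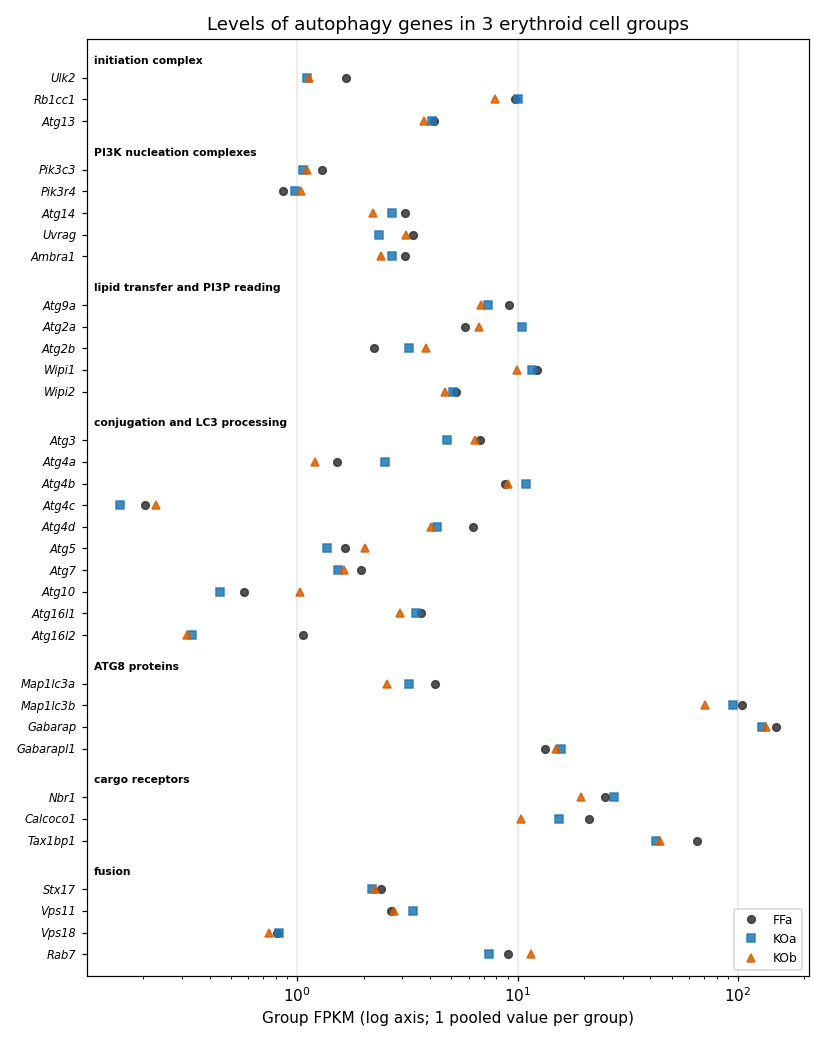
Group FPKM (log axis, 1 pooled value per gene and group, no error bar possible) of the 34 members, ordered by role, in FFa, KOa and KOb. Gabarap, Map1lc3b and Tax1bp1 lie above 40 FPKM in every group, and Atg4c lies lowest in every group, between 0.156 and 0.229.

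Against the control, most of the core autophagy genes moved little. In KOa, 2 members rose (Atg2a and Atg2b), 4 fell (Ulk2, Atg16l2, Calcoco1 and Tax1bp1) and 27 of the 33 tested did not pass. As a share this was 6.06% higher and 12.1% lower, where 7.99% of all 10761 tested genes were higher and 14.1% lower, so the counts lay near the background. In KOb, 1 member rose (Atg2b), 5 fell (Ulk2, Atg16l2, Map1lc3b, Calcoco1 and Tax1bp1) and 27 of 33 did not pass. That was 3.03% higher and 15.2% lower among the members, against 12.8% and 15.2% of all 10584 tested genes. At an unadjusted p below 0.05, 9 members in KOa and 10 in KOb would have passed.

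The members' ratios were also narrower than those of other genes. In KOa 29 of the 33 tested members lay within 1.5-fold of the control, and in KOb 27 did, against 66.3% and 62.8% of all tested genes. Beyond 2-fold lay 1 member in KOa and 2 in KOb, against 17.6% and 19.5% of all tested genes. The tested genes were not matched to the members in level, and the part of level in this difference was not tested. The list's median log2 ratio was -0.19 in KOa (all tested genes -0.08) and -0.23 in KOb (all tested genes -0.01). These medians turned positive, to 0.34 and 0.28, when FPKM were rescaled to the sum without globin genes, a scaling that put the median of all tested genes at 0.46 and 0.50. The ratio was below 0 for 23 of 33 members in KOa (69.7%, all tested genes 56.5%) and for 24 of 33 in KOb (72.7%, all tested genes 50.9%). KOa and KOb were set against the same controls, so these counts are not independent of each other.

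**Figure D2:**
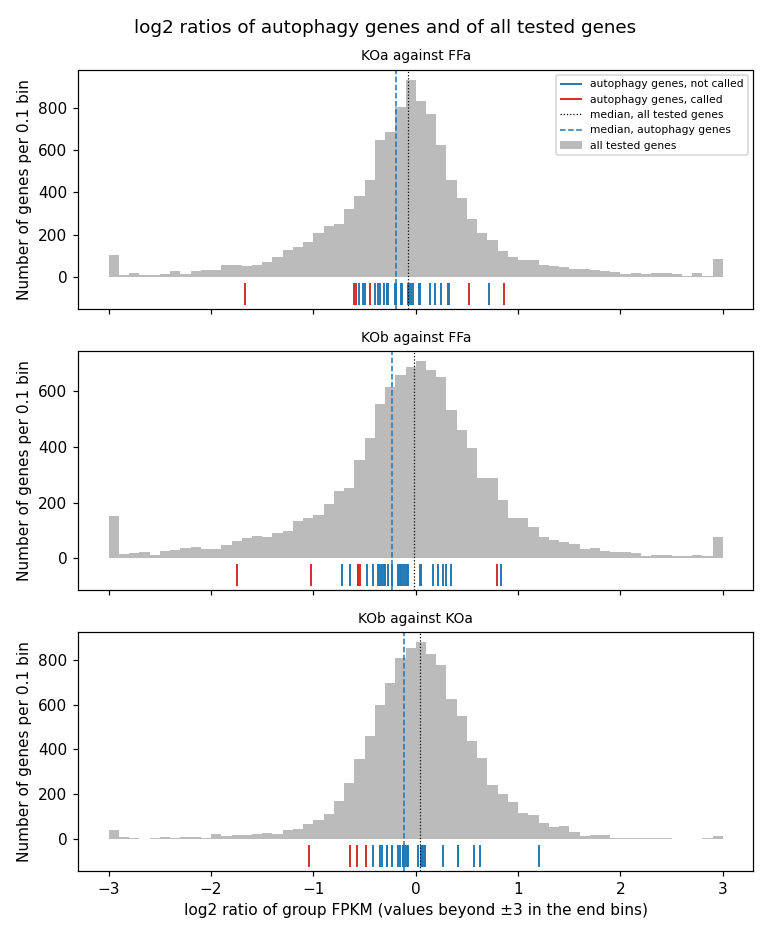
Number of all tested genes per bin of 0.1 in log2 ratio (bars), with the tested members as marks below, 1 panel for each mutant group over FFa and 1 for KOb over KOa. Members gather near 0, with medians of -0.19, -0.23 and -0.12, of which the first 2 turn positive (0.34 and 0.28) after rescaling without globin genes.

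Of the 16 called results, 6 rest on a statistic whose own 95% interval (1.96 implied errors on each side) includes 0. They are both results of Ulk2, Atg2b and Calcoco1 in KOa against FFa, Tax1bp1 in KOb against FFa, and Nbr1 in KOb against KOa. Read as a standard normal and adjusted again over all tests, the deposited statistics would leave 1 called member result, Calcoco1 in KOb against FFa.

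**Figure D3:**
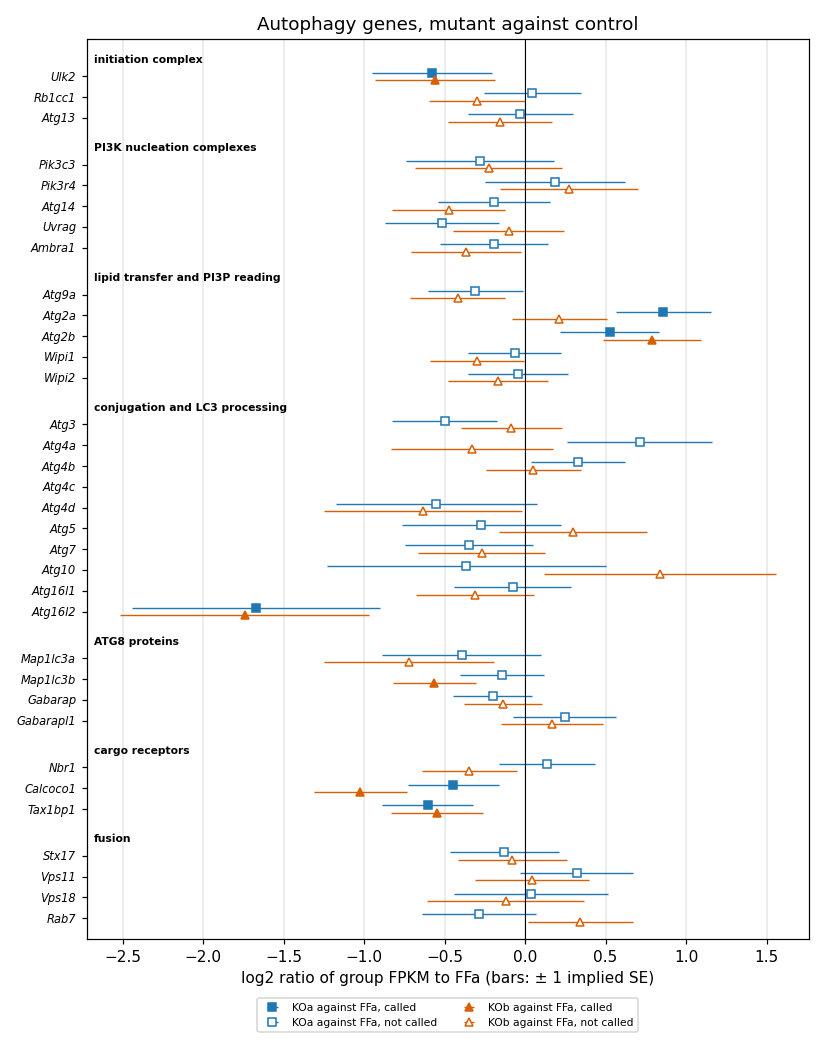
log2 ratio of KOa and of KOb over FFa for each tested member by role, with bars of 1 implied standard error on each side, where filled points are called (q below 0.05 in the authors' deposited table). Atg2a and Atg2b lie to the right, and Atg16l2 and Calcoco1 reach furthest left among called members. On the scale without globin genes Calcoco1 in KOa crosses to 0.09.

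Among initiation genes, Ulk2, which encodes a kinase that starts autophagosome formation, was low in all groups, at 1.66 FPKM in FFa, 1.11 in KOa and 1.13 in KOb. The level was lower in both mutants and nearly equal between them. The fall was -0.58 ± 0.37 in KOa (q = 0.0402 in the authors' deposited table) and -0.56 ± 0.37 in KOb (q = 0.0471). On the scale without globin genes, Ulk2 was at -0.04 in KOa and -0.05 in KOb. Rb1cc1, the gene of the scaffold FIP200, stood at 9.76, 10.1 and 7.92 FPKM, and Atg13, which encodes an adaptor of the kinase complex, at 4.17, 4.08 and 3.74, with neither called in any comparison. Atg101, the partner of ATG13, listed as 9430023L20Rik, stood at 7.12, 4.78 and 4.77 FPKM. Its log2 ratios of -0.58 ± 0.35 in both mutants missed the threshold (q of 0.0641 and 0.0653 in the authors' deposited table).

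None of the 5 nucleation genes was called by Cuffdiff in any comparison (0 of 5 each), and at an unadjusted p below 0.05 there was 1 in KOa (Uvrag) and 1 in KOb (Atg14) against FFa. Pik3c3, the gene of the lipid kinase VPS34, stood at 1.29 FPKM in FFa, 1.06 in KOa and 1.10 in KOb. Pik3r4, which encodes its regulatory subunit VPS15, stood at 0.859, 0.975 and 1.04. Atg14 directs the kinase to autophagosome formation and UVRAG is its counterpart on endosomes. Atg14 was at 3.07, 2.69 and 2.21 FPKM, and Uvrag was lowest in KOa, at 3.35, 2.34 and 3.12. The lowest q against FFa in the authors' deposited table were 0.0644 for Uvrag in KOa (-0.52 ± 0.35) and 0.0951 for Atg14 in KOb (-0.48 ± 0.35). Ambra1, a Beclin 1 partner, stood at 3.08, 2.70 and 2.39. The gene of Beclin 1 itself, Becn1, is not on the list. It was called lower in KOb against FFa and against KOa, with its levels given below. Its interval in KOb against KOa, taken as for the members, includes no change.

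The lipid transfer genes were the only members that rose. Atg2a and Atg2b encode bridge-like proteins that move lipid from the endoplasmic reticulum into the growing membrane. Atg2a stood at 5.74 FPKM in FFa, 10.4 in KOa and 6.66 in KOb. It was high in KOa alone, where it reached 181.4% of FFa. The rise in KOa was 0.86 ± 0.29 (q = 0.000619 in the authors' deposited table, its lowest value), whereas KOb against FFa gave 0.21 ± 0.30 (q = 0.417). Atg2b stood at 2.22, 3.20 and 3.84 FPKM, so that both mutants lay above the control. It rose by 0.53 ± 0.31 in KOa (q = 0.0235 in the authors' deposited table) and by 0.79 ± 0.31 in KOb (q = 0.000619). The Atg2a level was 2.59 times that of Atg2b in FFa, 3.26 times in KOa and 1.74 times in KOb. These rises held their direction on each scaling tried, and on the scale without globin genes they were 1.40 for Atg2a in KOa and 1.06 and 1.30 for Atg2b.

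The remaining genes of that step were not called in any comparison. Atg9a, which encodes the scramblase of the seed vesicles, stood at 9.11, 7.34 and 6.81 FPKM in FFa, KOa and KOb. The PI3P-binding proteins WIPI1 and WIPI2 recruit ATG2 and the conjugation machinery. Wipi1 stood at 12.2, 11.6 and 9.90 FPKM and Wipi2 at 5.26, 5.10 and 4.68. All 3 were lowest in KOb by group value, with no test passed.

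In the conjugation system 1 gene passed against the control. Atg16l2, a paralog of the ATG16L1 scaffold that places the conjugation enzymes on the membrane, stood at 1.06 FPKM in FFa, 0.333 in KOa and 0.316 in KOb. Both mutants were at under 32% of the control level (31.4% and 29.8%). It fell by 1.67 ± 0.77 in KOa (q = 0.0237 in the authors' deposited table) and by 1.74 ± 0.78 in KOb (q = 0.0195), the widest errors of all called members. With 1 added to each FPKM the log2 ratios were -0.63 and -0.65, and on the scale without globin genes they were -1.13 and -1.23. Atg16l1 itself stood at 3.63, 3.44 and 2.93 FPKM and was not called, so its level was 3.43 times that of Atg16l2 in FFa, 10.3 times in KOa and 9.26 times in KOb. The macrophage, B cell and granulocyte marker sums were lower in the same groups as Atg16l2, with the granulocyte markers Mpo, Elane and Prtn3 higher there instead, and the part of these cells in its fall was not tested.

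The enzymes of the conjugation cascade did not pass. The E1-like enzyme gene Atg7 stood at 1.95, 1.53 and 1.62 FPKM, and the E2-like genes Atg3 at 6.76, 4.79 and 6.37 and Atg10 at 0.575, 0.447 and 1.03. Atg5, whose product is joined to ATG12, stood at 1.64, 1.36 and 2.02. All 4 genes had their lowest group value in KOa, and the lowest q among them against FFa was 0.0638 for Atg3 in KOa (-0.50 ± 0.33, authors' deposited table).

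ATG4 proteases trim ATG8 proteins before conjugation and release them afterwards. Atg4b, which encodes the main protease of the family, stood at 8.73, 11.0 and 9.04 FPKM and was not called. Atg4d stood at 6.28, 4.29 and 4.04 and was not called either, with errors of 0.62 to 0.70 over its 3 comparisons, and its deposited span runs on over the neighbouring gene Kri1. Atg4c, at 0.204, 0.156 and 0.229, was listed as not tested. The entry named Atg4a stood at 1.52 FPKM in FFa, 2.49 in KOa and 1.21 in KOb. The deposited position, chromosome 3 from 103643953 to 103646068 of mm10, is that of the retrocopy Atg4a-ps in RefSeq, within the span of Syt6, whereas RefSeq places Atg4a on chromosome X. The value is therefore that of the chromosome 3 locus, and reads that fit both copies cannot be told apart. Against FFa it was not called (0.71 ± 0.45 in KOa, q = 0.0595 in the authors' deposited table, and -0.33 ± 0.50 in KOb, q = 0.491).

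Gabarap and Map1lc3b, of the ATG8 family, were the most abundant members. Gabarap stood at 148 FPKM in FFa, 129 in KOa and 134 in KOb, above 98.6%, 98.6% and 98.7% of all genes, and was not called in any comparison (-0.20 ± 0.25 in KOa and -0.14 ± 0.24 in KOb). Map1lc3b, the gene of LC3B, the protein most used to follow autophagosomes, stood at 104, 94.5 and 70.5 FPKM. It was lowest in KOb, where it fell by 0.56 ± 0.26 (q = 0.00681 in the authors' deposited table), and -0.14 ± 0.26 in KOa did not pass (q = 0.592). On the scale without globin genes the KOb value of Map1lc3b was -0.05. Gabarapl1 stood at 13.3, 15.7 and 14.9 FPKM and Map1lc3a at 4.21, 3.20 and 2.55, and neither passed. The lowest q of the 2 was 0.0780 for Map1lc3a in KOb (-0.72 ± 0.53, authors' deposited table).

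Among the 4 ATG8 members the shares of Map1lc3b and Gabarap in KOb differed from those in FFa and KOa by group value. The sum of the 4 genes was 269.8 FPKM in FFa, 242.3 in KOa and 222.4 in KOb. Map1lc3b made up 38.6%, 39.0% and 31.7% of that sum and Gabarap 54.9%, 53.2% and 60.5%. Gabarapl2 is also of the ATG8 family but not a member of the list, and stood at 101, 76.7 and 69.8 FPKM. With it included, the shares were 28.1%, 29.6% and 24.1% for Map1lc3b, 39.9%, 40.4% and 46.0% for Gabarap and 27.3%, 24.0% and 23.9% for Gabarapl2. A ratio within a group does not depend on the scaling between groups, but with 1 pooled value per group these shares have no error and were not tested.

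Of the 3 cargo receptor genes, Tax1bp1 and Calcoco1 fell in both mutant groups. Tax1bp1, which encodes a receptor for ubiquitinated cargo, stood at 64.9 FPKM in FFa, 42.6 in KOa and 44.4 in KOb. Both mutants lay well below the control and close to each other, at 65.7% and 68.4% of FFa. It fell by 0.61 ± 0.29 in KOa (q = 0.00513 in the authors' deposited table) and by 0.55 ± 0.28 in KOb (q = 0.0124). Calcoco1, the gene of a receptor for the endoplasmic reticulum and Golgi, stood at 21.1, 15.5 and 10.4 FPKM. Its order was FFa, then KOa, then KOb, and it is the only member called in all 3 comparisons. It fell by 0.45 ± 0.28 in KOa (q = 0.0489 in the authors' deposited table) and by 1.03 ± 0.29 in KOb (q = 0.000619), to 49.1% of the control.

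Nbr1, which encodes a receptor that clusters ubiquitinated proteins, did not follow the other receptor genes. It stood at 24.8 FPKM in FFa, 27.2 in KOa and 19.5 in KOb. Neither mutant passed against the control (0.14 ± 0.30 in KOa and -0.35 ± 0.30 in KOb). Together the 3 receptor genes summed to 110.7, 85.3 and 74.2 FPKM. The falls in the receptors depended on scaling. On the scale without globin genes Tax1bp1 was at -0.07 in KOa and -0.04 in KOb, and Calcoco1 at 0.09 in KOa and -0.52 in KOb, while the median of all tested genes was at 0.46 and 0.50.

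Fusion genes were not called by Cuffdiff in any comparison (0 of 4 each), and at an unadjusted p below 0.05 there was 1, Rab7 in KOb against KOa. Stx17, the SNARE of the closed autophagosome, stood at 2.39, 2.19 and 2.26 FPKM in FFa, KOa and KOb. Vps11 and Vps18 encode core subunits of the HOPS tether, and stood at 2.67, 3.33 and 2.75 FPKM and at 0.806, 0.825 and 0.740. The late endosome GTPase gene Rab7 was highest in KOb, at 9.05, 7.43 and 11.5, and its deposited span covers only part of the RefSeq gene. Epg5, a RAB7 effector listed as 5430411K18Rik, stood at 1.66, 1.49 and 1.39, with no call.

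The mutant groups were compared directly, the TER119-negative cells described as severely deleted against the TER119-positive cells described as modestly deleted. Of 32 tested members, 4 fell in KOb against KOa (12.5%), namely Atg2a, the entry named Atg4a, Calcoco1 and Nbr1, and 28 did not pass. The background was 6.19% of all 10468 tested genes lower and 10.0% higher. No member rose by Cuffdiff's test at a q below 0.05 (0 of 32) or by the normal p of its statistic, and at an unadjusted p below 0.05 in that table of the authors, 4 members were higher (Atg3, Atg5, Atg10 and Rab7) and 6 lower. The members' median log2 ratio was -0.12, against 0.04 for all tested genes.

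The control lay at different places relative to these falls. Atg2a fell by 0.65 ± 0.29 (q = 0.00248 in the authors' deposited table), from a KOa level far above FFa to a KOb level close to it. Nbr1 fell by 0.48 ± 0.30 (q = 0.0274), with FFa between the mutants. The entry named Atg4a fell by 1.04 ± 0.47 (q = 0.00714 in the authors' deposited table), again with FFa between them but closer to KOb. Calcoco1 fell by 0.58 ± 0.29 (q = 0.0113), with both mutants below FFa. Tax1bp1, in contrast, stood at almost the same level in both mutants (0.06 ± 0.28, 95% interval -0.49 to 0.61, q = 0.843 in the authors' deposited table).

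Some members missed the threshold between the mutants by a small margin. Map1lc3b was at -0.42 ± 0.26 (q = 0.0543 in the authors' deposited table). Rab7 was at 0.63 ± 0.33 (q = 0.0738) and Atg10 at 1.20 ± 0.78 (q = 0.0938). Atg16l2 was not tested between the mutants. The summed erythroid markers were 4818 FPKM in KOa and 3103 in KOb, and 5 of the 10 were called lower in KOb, so the gate, the degree of deletion and the stage of the cells cannot be told apart in these differences.

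**Figure D4:**
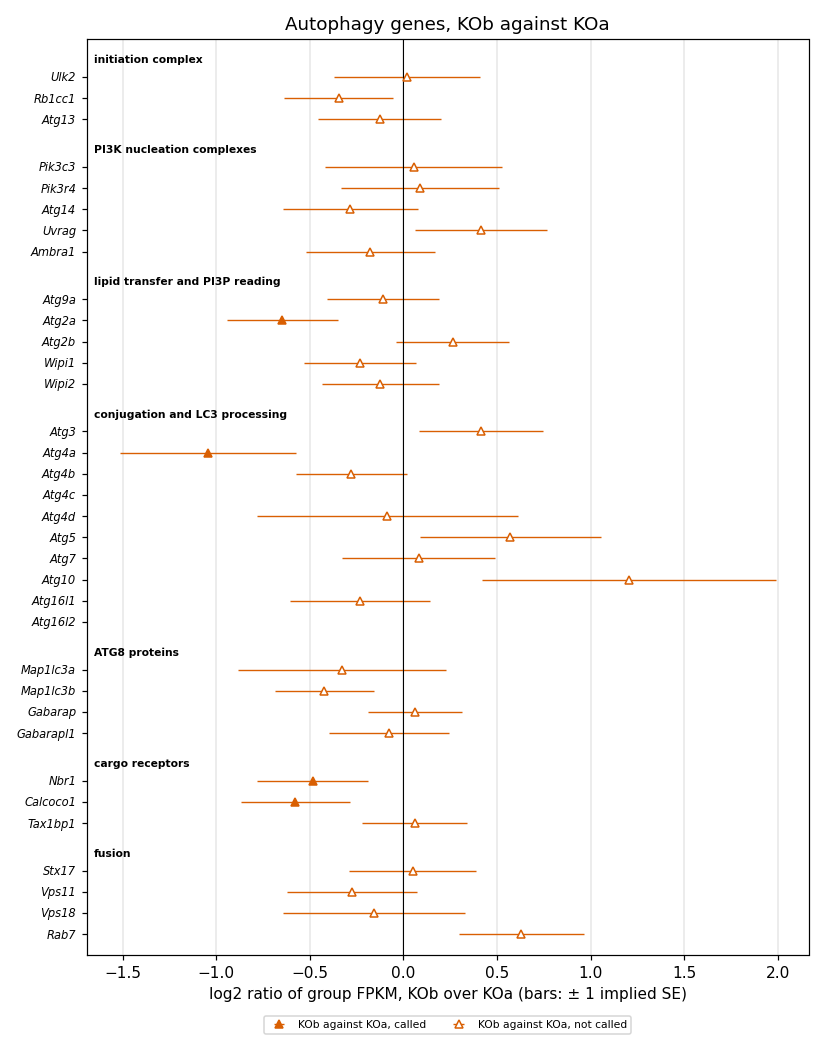
log2 ratio of KOb over KOa for each tested member by role, with bars of 1 implied standard error on each side, where filled points are called (q below 0.05 in the authors' deposited table). The 4 called members, Atg2a, the entry named Atg4a, Calcoco1 and Nbr1, lie to the left of 0, and Atg10 lies furthest right with a long bar.

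The other macroautophagy genes, which are not members, also moved in both directions. Of 23 listed, 20 were found and 19 tested. In KOa 3 rose and 1 fell, in KOb 1 rose and 4 fell, and in KOb against KOa 1 rose and 4 fell. Of all tested genes, 7.99% were called higher and 14.1% lower in KOa, and 12.8% and 15.2% in KOb. Between the mutants these shares were 10.0% higher and 6.19% lower. Ulk1, the paralog of Ulk2, stood at 14.1 FPKM in FFa, 20.2 in KOa and 12.4 in KOb. It rose by 0.52 ± 0.29 in KOa (q = 0.0169 in the authors' deposited table), where Ulk2 fell. The intervals of both results, taken as for the members above, include no change, and the difference between these paralogs was not tested. For KOb against KOa, Ulk1 was at -0.70 ± 0.29 (q = 0.000619 in that table). Wdr45, a relative of the WIPI genes, had the same order, at 12.2, 17.9 and 11.4 FPKM. Its interval in KOa against FFa also includes no change. Becn1, the Beclin 1 subunit of the nucleation complex, stood at 73.5, 69.6 and 49.3, and Atg12 at 23.0, 18.4 and 14.7. Both, and Gabarapl2 at the levels given above, were called lower in KOb against FFa. The log2 ratios there were -0.58 for Becn1, -0.65 for Atg12 and -0.54 for Gabarapl2. The scale without globin genes subtracts a shift of -0.51 from each ratio of KOb against FFa, so little of these falls remains on it. Tmem41b, whose product is a lipid scramblase that acts with ATG2, rose in both mutants, at 2.73, 4.46 and 4.91 FPKM.

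Of 20 upstream regulators, 18 were tested against FFa. In KOa 4 rose and 3 fell, and in KOb 2 rose and 4 fell. The shares of all tested genes were 7.99% higher and 14.1% lower in KOa, and 12.8% and 15.2% in KOb. Tfeb encodes a transcription factor for lysosomal and autophagy genes that reads E-boxes. It stood at 1.15 FPKM in FFa, 0.213 in KOa and 0.354 in KOb, called lower in both mutants. The log2 ratios were -2.44 ± 0.94 in KOa (q = 0.00205 in the authors' deposited table) and -1.70 ± 0.79 in KOb (q = 0.00807). Its relative Tfe3, at 4.12, 5.97 and 5.50, was called higher in KOa (0.54 ± 0.34). The interval of that result, taken as for the members, includes no change. Rptor, the gene of the mTORC1 subunit raptor, rose in both mutants, at 1.81, 3.15 and 2.70, though its interval in KOb includes no change. Ddit4, an inhibitor of mTORC1 signalling, also rose in both, at 1.61, 5.71 and 5.77. The FOXO factor genes, which promote autophagy gene expression in several tissues, were each called lower in at least 1 mutant group. Foxo3 fell in KOb, at 47.2, 44.5 and 26.7 FPKM, and so did Foxo4, at 12.4, 12.8 and 5.80. Foxo1 fell in both mutants, at 1.29, 0.490 and 0.366. Tfeb and Foxo1 were low in all groups. The macrophage and B cell marker sums were lower in both mutants too, and the megakaryocyte sum was higher. The part of these cells in the falls of Tfeb and Foxo1 was not tested.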

How the data were processed

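Per the labels' protocols, total RNA came from an RNeasy column with DNase treatment and libraries from the NuGEN Encore Complete system. TopHat2 2.0.8b, Bowtie2 2.1.0, Cuffdiff 2.1.1 and build mm10 are named in the submitters' processing notes. The annotation, filters, scaling and strandedness were not given in the sources used here. Deposited FPKM are 1 value per gene and group. The deposited log2 ratio has no pseudocount. A score, the test statistic of that ratio, was deposited beside it. The deposited p-value has a floor of 5e-05, and the deposited q-value equals Benjamini-Hochberg adjustment over 31813 tested results of the 3 comparisons (largest gap 5.27e-07). For 96.0% of tested results the deposited p lies below the normal p of the statistic.

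Standard errors were computed here as the log2 ratio over the statistic, with Python 3.11.15, pandas 2.3.3 and scipy 1.17.1, and the adjustment was tested on simulated data. Every member was to be named, with full statistics where called in any comparison. The members, gene lists, markers and alternatives were chosen with earlier results of these data known, and the GC and CCAAT boxes and upper-quartile scaling were added after the values were seen.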

Additional observations from a re-analysis of the deposited data

Results flagged for a closer look

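In 4 members the effects of the 2 mutant groups differed by the test between them, KOb against KOa, which is the difference of their ratios to the shared control. The log2 ratio was -0.65 for Atg2a, -1.04 for the entry named Atg4a, -0.58 for Calcoco1 and -0.48 for Nbr1. The groups also differ in sort gate, which cannot be told apart from the degree of deletion.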

How the results depend on the processing

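The 16 gene values and the 3 medians kept their direction with scaling to the median of expressed genes, to the upper quartile (chosen after seeing the data) and with a pseudocount of 1. Rescaling without globin genes reversed the median in KOa (0.34) and KOb (0.28) against FFa and Calcoco1 in KOa (0.0895). The sum without globin genes held 40.2% S100a8, S100a9 and small or ribosomal RNA entries in FFa, 23.5% in KOa and 32.3% in KOb. A q threshold of 0.01 left 1 higher and 1 lower member in KOa, 1 higher and 2 lower in KOb, and 2 lower in KOb against KOa. With the normal p of the deposited statistic 0 higher and 0 lower remained in KOa, 0 higher and 1 lower in KOb (Calcoco1), and 0 lower in KOb against KOa. The counts stayed within 1.5 times with adjustment inside each comparison and with an FPKM minimum of 1. No paired analysis was possible because the deposited values are pooled per group, and for the same reason no library could be left out. Depth is unknown, and the median implied error of 0.34 spans 1.58-fold at 95%.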

Other observations

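The 2 members listed under older names did not pass in any comparison. Counted with the others, Atg101 and Epg5 would have left the numbers of called members as they are.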
